A study of Caenorhabditis elegans with 6 samples.

Results

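The genes described here encode antimicrobial peptides and saposin-like proteins of *C. elegans*. They were taken from both deposited expression tables by symbol alone, as every gene whose symbol starts with *cnc-*, *abf-*, *spp-*, *fip-*, or *fipr-*, together with *nlp-27* to *nlp-34*. The rule found 78 of the 17399 genes listed in either table. Of these, 51 belong to families named here as epidermal (8 *nlp*, 11 *cnc*, 6 *fip*, and 26 *fipr* genes) and 27 to families named as intestinal (22 *spp* and 5 *abf* genes). The names of the groups come from where the best known members act. RNA of whole worms does not show the tissue, and *abf* genes are also known from the pharynx.

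The worms were adults of N2, the wild-type strain. From young adulthood on, NGM plates held either 0.1 μM vitamin K2 (VK2) or no VK2 over 7 days at 20°C, and the worms were moved to fresh plates daily so that their progeny were left behind. RNA of whole bodies was sequenced in 3 libraries of VK2-treated worms (T1, T2, and T3) and 3 libraries of control worms (C1, C2, and C3). No allele or transgene is named for either group. The sources used here do not say whether the 3 libraries of a group came from separate cultures, so that p-values measure only the spread between these libraries, which may be technical. Expression was deposited as FPKM, the fragment count of a transcript corrected for transcript length and library size, in one table with T1 and C1 and another with T2, T3, C2, and C3. FPKM summed to 654910 and 686279 in T1 and C1 but to between 369349 and 396004 in the other libraries, so VK2 libraries were set against control libraries only within a table. The number of fragments behind each value, and so the depth, is unknown.

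*C. elegans* has no adaptive immunity and no circulating immune cells, and meets fungi through the cuticle and bacteria through the gut. The epidermis answers fungal infection and wounding with short secreted peptides, namely neuropeptide-like proteins of the *nlp-29* group and caenacins (*cnc*), which are controlled by a p38 kinase cascade and, for *cnc-2*, by the TGF-β ligand DBL-1. Fungus-induced proteins (*fip*) and their relatives (*fipr*) were named for such infections. Saposin-like proteins (*spp*) are related to the amoebapores, which make pores in membranes, and *abf* genes encode antibacterial factors with a defensin-like fold.

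Of the 78 genes, 71 were listed in both tables, and the 67 with a mean of at least 1 FPKM over the 6 libraries were tested, 44 epidermal and 23 intestinal. Transcripts of a gene were summed. A difference is given as VK2 minus control on the log2(FPKM + 1) scale, fitted by limma with a term for the table, and is positive where VK2-treated worms were higher. The scale understates differences of genes with a low level.

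Library C3 stood apart from the rest of its table. Over the 67 genes, the log2 difference between libraries had an SD of 1.12 for T3 minus C3 and 1.07 for C2 minus C3, against 0.455 for T2 minus C2, 0.421 for T2 minus T3, and 0.331 for T3 minus C2. Over all 14191 genes tested C3 also stood apart, with an SD of 0.649 for T3 minus C3 and 0.695 for C2 minus C3. The SD over all genes was 0.35 for T2 minus C2, 0.292 for T2 minus T3, and 0.295 for T3 minus C2. C3 was the highest of the 4 libraries for 38 of the 67 genes, or 56.7%, where it was the highest for 29.3% of all 14191 genes tested, and the lowest for 15 genes, or 22.4%, against 49% of all genes. It was at least 1.5 times above each of the other 3 libraries for 23 of the 67 genes, or 34.3%, against 6.86% of all genes, and at least 1.5 times below each for 8 genes, or 11.9%, against 9.84%. The fitted differences of single genes are therefore given with and without C3.

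Markers of tissues also moved with C3. The 10 markers of oocytes and embryos were all lowest in C3, with a summed level of 1610 and 1650 FPKM in T2 and T3, against 2040 and 687 FPKM in C2 and C3. In the other table their sum was 4260 FPKM in T1, against 4320 FPKM in C1. Of 12 epidermis markers, 10 were highest in C3 in their table, with sums of 1110 and 1270 FPKM in T2 and T3, against 1290 and 1870 FPKM in C2 and C3, and with 1570 FPKM in T1, against 1400 FPKM in C1. Much of the high sum in C3 came from *dpy-13*, at 188.6 and 409.7 FPKM in C2 and C3, and *col-10*, at 330.2 and 539.3 FPKM. By contrast, *col-19* was nearly level, at 172.2 and 184.3 FPKM in T2 and T3, against 178.6 and 186.8 FPKM in C2 and C3. *vha-7* was lowest in C3. The median fitted difference of these 12 markers was -0.21, and -0.06 without C3. The 13 intestine markers found in both tables summed to 6390 and 7260 FPKM in T2 and T3, against 7900 and 3680 FPKM in C2 and C3, and to 8550 FPKM in T1, against 7640 FPKM in C1. Much of the low sum in C3 came from 2 yolk protein genes. Of these, *vit-2* had 1560 and 1858 FPKM in T2 and T3, against 2047 and 290.5 FPKM in C2 and C3. *vit-6* had 1646 and 2043 FPKM in T2 and T3, against 2272 and 373.5 FPKM in C2 and C3. Of the 13 intestine markers, 6 were lowest and 2 highest in C3 in their table. Their median log2 difference between C3 and the mean of T2, T3, and C2 was -0.14. Their median fitted difference was 0.15, and 0.06 without C3. The 9 pharynx markers summed to 374 and 418 FPKM in T2 and T3, against 478 and 324 FPKM in C2 and C3, and the 10 neuron markers to 432 and 434 FPKM, against 413 and 504 FPKM. In T1 these 2 lists summed to 134 and 462 FPKM, against 128 and 464 FPKM in C1. The 10 body wall muscle markers summed to 2230 and 2560 FPKM in T2 and T3, against 2700 and 2540 FPKM in C2 and C3, and to 2180 FPKM in T1, against 1830 FPKM in C1. The fitted difference of the 8 sperm markers tested was positive for all, at a median of 0.56, or 0.38 without C3. The 9 sperm markers listed in both tables summed to 426 FPKM in T1, against 223 FPKM in C1, and to 308 and 296 FPKM in T2 and T3, against 295 and 171 FPKM in C2 and C3. No marker was at 0 in any library. In RNA of whole worms, fewer cells of a type and less RNA per cell cannot be told apart, and the part of tissue content in the results that follow was not tested.

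Most of these genes had a negative fitted difference, but by amounts that rested largely on C3. The excess over all genes was not seen in every pair. T2 was below C2 for 35 of the 67 genes, or 52.2%, where 62.1% of all genes were. By the fitted difference, 45 of the 67 genes were lower in VK2-treated worms, or 67.2%, where 44.9% of all genes were lower, and 22 were higher, or 32.8%, against 55.1%. Without C3, 46 were lower, or 68.7%, against 58% of all genes. No gene passed an adjusted p of 0.05 in limma, adjusted by Benjamini-Hochberg over all 14191 genes (0 of 67, against 0% of all genes), and the adjusted p was 0.9996 for each. At an unadjusted p below 0.05 in limma there were 3 of the 67 genes, *cnc-10*, *fipr-23*, and *spp-11*, which is 4.48%, against 3.57% of all genes. Without C3 there were 4, which add *abf-2* and make 5.97%, against 7.21% of all genes. With the replicate number as a block there were 6 at this level, or 8.96%, against 4.14% of all genes, and again 0 after adjustment.

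The 44 epidermal genes held most of the larger differences. Their median fitted difference was -0.19, and -0.10 without C3, where the median of all genes was 0.02, and -0.04 without C3. In VK2-treated worms, 9 of the 44 were at least 1.5 times lower, or 20.5%, against 1.68% of all genes: *nlp-29*, *nlp-31*, *cnc-4*, *cnc-11*, *fip-6*, *fipr-22*, *fipr-23*, *fipr-24*, and *fipr-26*. Without C3 there were 0 of the 44, against 0.684% of all genes, and without C2 there were 14, or 31.8%, against 4.73%. Only *cnc-9* was at least 1.5 times higher, or 2.27% of the 44, against 3.33% of all genes, and the count was 4 without T1 or without C1, against 3.43% of all genes, 2 without C2, against 7.73%, and 0 without T2, T3, or C3. The plot of fitted differences shows these values for each gene.

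**Figure D1:**
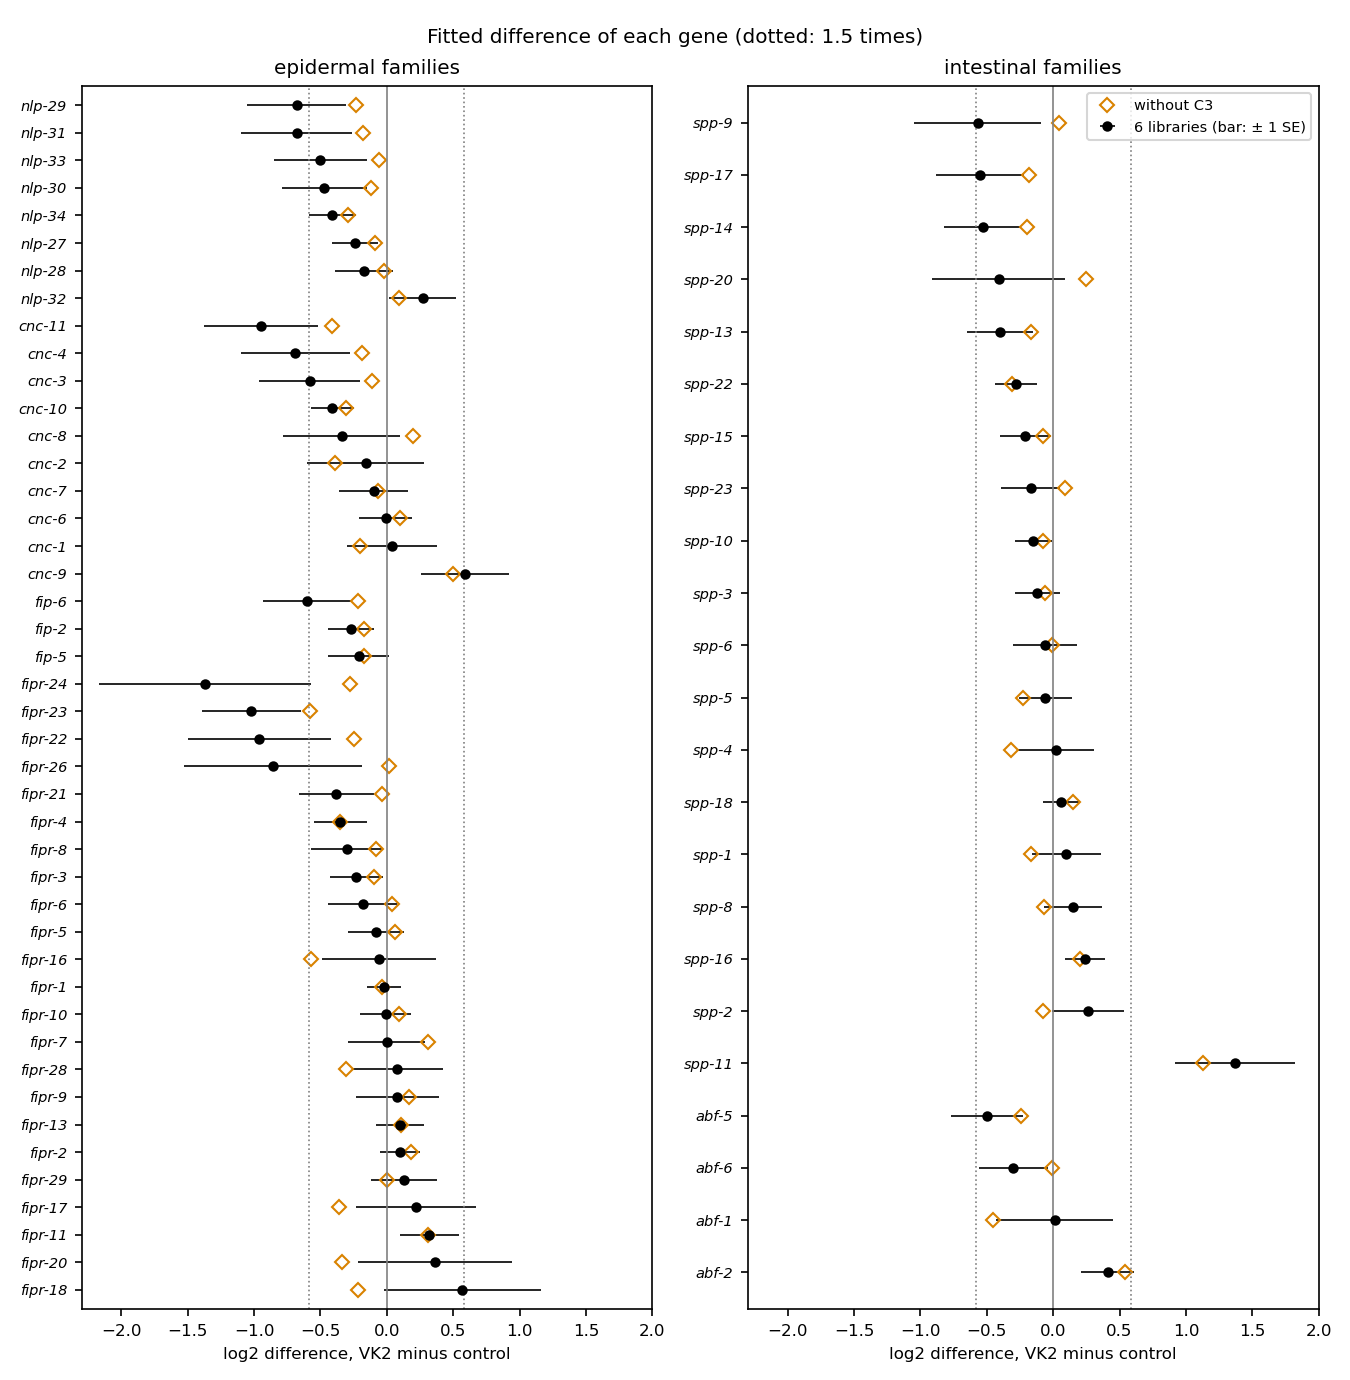
Fitted log2 difference, VK2 minus control, of each of the 67 genes tested, with all 6 libraries (black points, bars of 1 SE) and without C3 (open diamonds); dotted lines mark 1.5 times. Of the 9 epidermal genes left of the lower dotted line, none stays beyond it without C3, whereas *spp-11* lies right of the upper line both ways.

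The 23 intestinal genes had a median fitted difference of -0.12, and -0.08 without C3. None was at least 1.5 times lower, and *spp-11* was at least 1.5 times higher, which is 4.35% of the 23. The count at least 1.5 times lower was 3 when T1 or C1 was left out, against 3.51% of all genes, 3 without T3, against 1.9%, and 6 without C2, against 4.73%, while *spp-11* alone was at least 1.5 times higher whichever library was left out, as it was without C3, where 2.5% of all genes were.

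The pairs of libraries with the same number were compared one by one, with 1 library on each side and so without a test. In T1 against C1, where C3 plays no part, 9 of the 44 epidermal genes were at least 1.5 times lower in T1, or 20.5%, against 3.52% of all genes. In T2 against C2 there were 4, or 9.09%, against 2.58% of all genes, and in T3 against C3 there were 19, or 43.2%, against 10.9%. T1 was below C1 by any amount for 44 of the 67 genes, or 65.7%, against 48.8% of all genes, T2 below C2 for 35, or 52.2%, against 62.1%, and T3 below C3 for 45, or 67.2%, against 40.7%. Of the 67 genes, 3, or 4.48%, were at least 1.5 times higher in T1 than in C1, where 9.48% of all genes were. The same held for 3, or 4.48%, in T2 against C2, where 4.02% of all genes were, and 13, or 19.4%, in T3 against C3, where 14.8% were. Of the intestinal genes, 2 were at least 1.5 times lower in T1 than in C1, 1 in T2 than in C2, and 8 in T3 than in C3. The median log2 difference of the epidermal genes was -0.33 for T1 minus C1, -0.01 for T2 minus C2, and -0.43 for T3 minus C3. Those of the intestinal genes were -0.21, -0.01, and -0.06. The epidermal genes were therefore lower on balance in T1 than in C1 and in T3 than in C3, and the intestinal genes mainly in T1 than in C1. In all 3 pairs the VK2 library was lower for 14 of the 67 genes, or 20.9%, against 9.32% of all genes, and higher for 3, or 4.48%, against 10.8%. No gene differed by at least 1.5 times in the same direction in all 3 pairs, where 0.0846% of all genes were lower and 0.218% higher by that much.

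**Figure D2:**
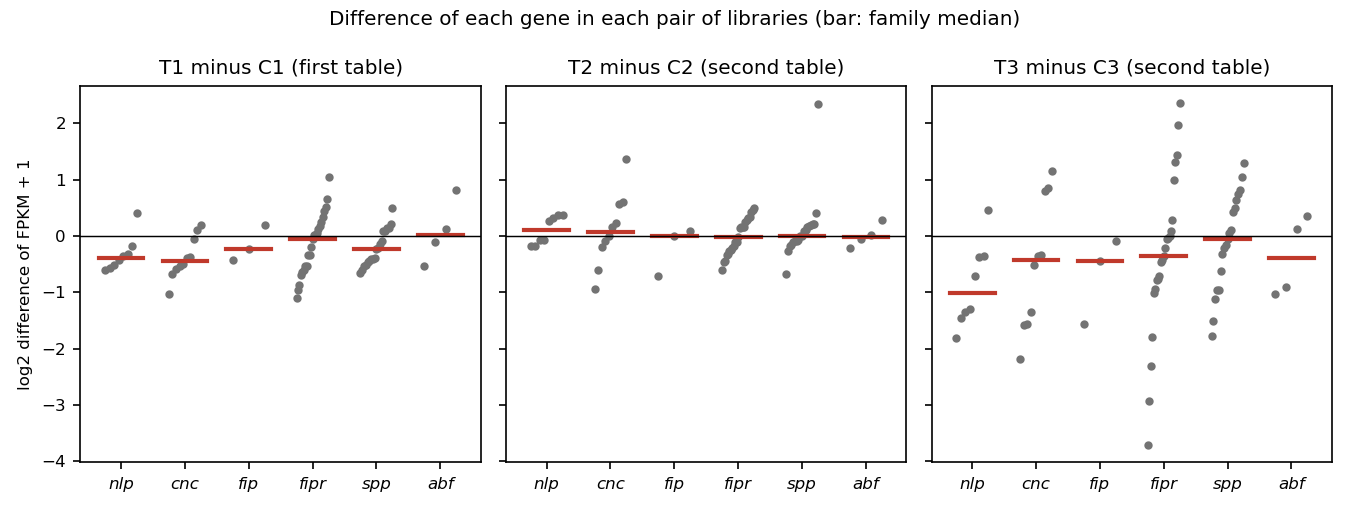
Log2 difference of FPKM + 1 of each gene tested in T1 minus C1, T2 minus C2, and T3 minus C3, by family, with red bars for the family medians. The *nlp* median is -0.38 for T1 minus C1, 0.10 for T2 minus C2, and -1.01 for T3 minus C3, and points spread most in T3 minus C3.

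All 8 *nlp* genes were tested, and the fitted difference was negative for 7 of them, with and without C3. That is 87.5%, against 44.9% of all genes, and 58% of all genes without C3. Their levels summed to 659.4 FPKM in T1, against 876.4 FPKM in C1, and to 199.4 and 195.6 FPKM in T2 and T3, against 185.8 and 398.2 FPKM in C2 and C3. The sum of the VK2 library was thus lower than that of its control in the pairs with C1 and C3 and slightly higher in the pair with C2. The median fitted difference of the 8 genes was -0.44, and -0.11 without C3.

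*nlp-29*, the peptide gene most used to follow the epidermal response to fungi and wounds, had 112 FPKM in T1, against 167 FPKM in C1, and 17.5 and 23.2 FPKM in T2 and T3, against 19.9 and 58.2 FPKM in C2 and C3. T1 was below C1, while T3 lay above C2, so that the groups overlapped in the table with 4 libraries. The fitted difference was -0.68 ± 0.37 (SE), and -0.23 without C3. *nlp-33*, whose level was the highest of the family, had 173 FPKM in T1, against 221 FPKM in C1, and 58.9 and 47.1 FPKM in T2 and T3, against 47.0 and 131 FPKM in C2 and C3. Here C3 stood alone, since C2 was at the level of T3, and the fitted difference of -0.50 ± 0.35 (SE) was -0.06 without C3. *nlp-27* had 160 FPKM in T1, against 181 FPKM in C1, and 58.7 and 71.6 FPKM in T2 and T3, against 66.3 and 92.1 FPKM in C2 and C3. It was lower in the VK2 library of every pair, by a fitted -0.24 ± 0.17 (SE), or -0.09 without C3. *nlp-28* had 119 FPKM in T1, against 170 FPKM in C1, and 25.5 and 24.7 FPKM in T2 and T3, against 19.4 and 32.2 FPKM in C2 and C3. T2 and T3 lay between C2 and C3, and the fitted difference was -0.17 ± 0.22 (SE), or -0.02 without C3.

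*nlp-31*, whose peptide has antimicrobial activity in vitro, had 64.2 FPKM in T1, against 98.4 FPKM in C1, and 22.4 and 16.2 FPKM in T2 and T3, against 17.1 and 59.6 FPKM in C2 and C3. C3 was far above the other 3 libraries of its table, which did not separate by treatment, and the fitted difference was -0.68 ± 0.42 (SE), or -0.18 without C3. *nlp-34* was the one *nlp* gene for which every VK2 library was below every control library of its table. It had 15.4 FPKM in T1, against 20.9 FPKM in C1, and 11.3 and 9.57 FPKM in T2 and T3, against 11.98 and 16.42 FPKM in C2 and C3, with a fitted difference of -0.41 ± 0.18 (SE) and -0.29 without C3. *nlp-30* had 11.4 FPKM in T1, against 14.5 FPKM in C1, and 4.26 and 2.81 FPKM in T2 and T3, against 3.37 and 8.80 FPKM in C2 and C3, a fitted difference of -0.47 ± 0.32 (SE), or -0.12 without C3. The exception was *nlp-32*, the only *nlp* gene on chromosome III, with 4.94 FPKM in T1, against 3.47 FPKM in C1, and 0.826 and 0.615 FPKM in T2 and T3, against 0.915 and 0.172 FPKM in C2 and C3. Its fitted difference was 0.27, or 0.09 without C3.

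**Figure D3:**
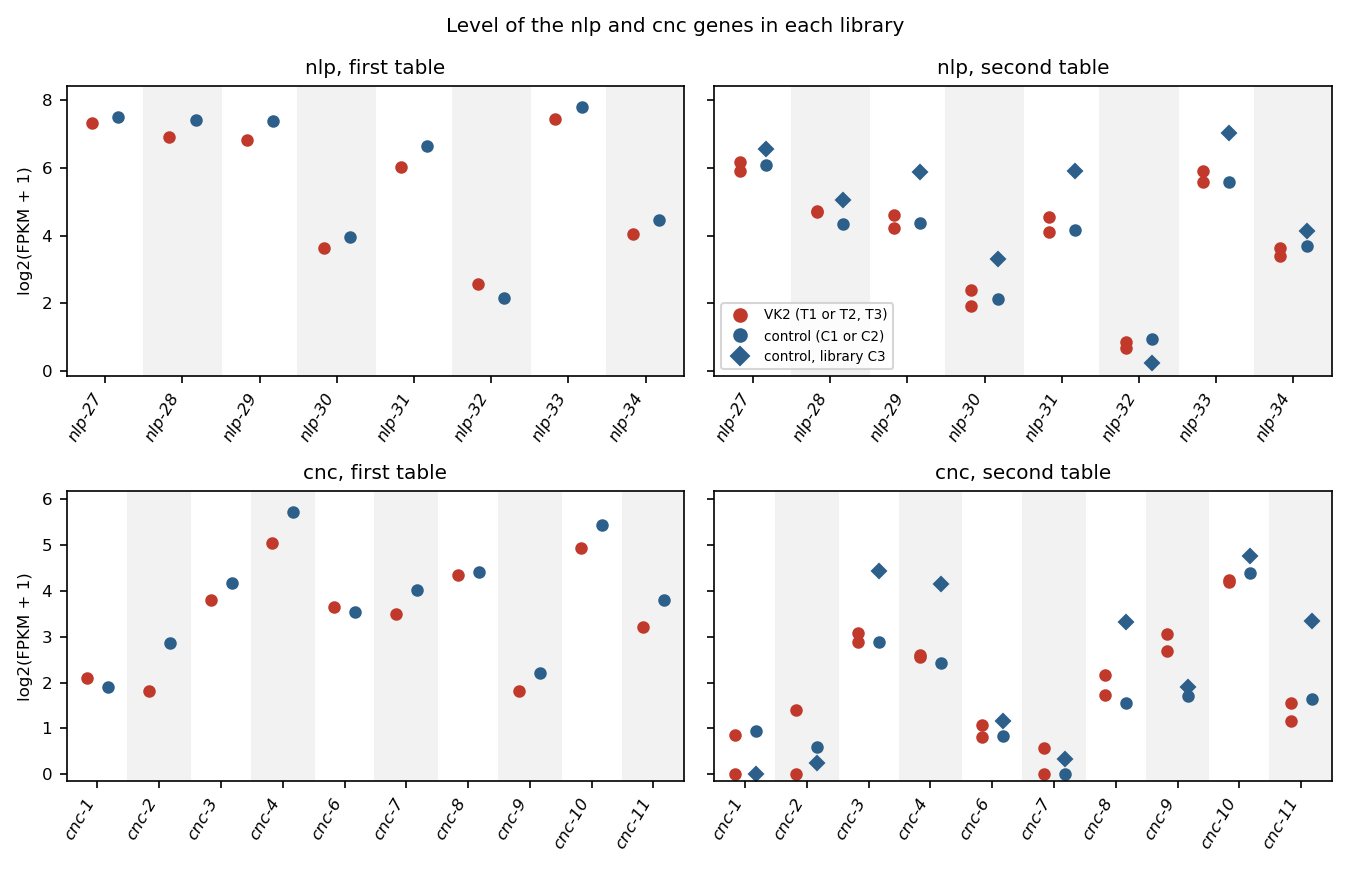
Level of the 8 *nlp* and 10 *cnc* genes tested, as log2(FPKM + 1), in each library, with VK2 libraries in red to the left of control libraries in blue and C3 as a diamond. C3 is the highest library of its table for 7 of the 8 *nlp* genes and 6 of the 10 *cnc* genes. It is so for 29.3% of all genes tested. T2, T3, and C2 lie close together for most of the genes shown.

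Of the 10 caenacin genes tested, 8 had a negative fitted difference, or 80%, against 44.9% of all genes. Without C3 there were 7, or 70%, against 58% of all genes. The median of the 10 genes was -0.25, or -0.15 without C3. The 10 genes summed to 132.3 FPKM in T1, against 182 FPKM in C1, and to 42.9 and 42.6 FPKM in T2 and T3, against 39.31 and 86.01 FPKM in C2 and C3, which repeats the order of libraries seen for *nlp* genes.

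*cnc-10* had the highest mean level of the family, with 29.6 FPKM in T1, against 42.03 FPKM in C1, and 17.2 and 17.9 FPKM in T2 and T3, against 20.0 and 26.1 FPKM in C2 and C3. Every VK2 library was below every control library of its table. The fitted difference was -0.41 ± 0.16 (SE), or -0.31 without C3, with an unadjusted p of 0.0404 and an adjusted p of 0.9996 in limma with Benjamini-Hochberg adjustment. The same separation held for 6 of the 67 genes, or 8.96%, against 5.98% of all genes. They were *nlp-34*, *cnc-10*, *cnc-11*, *fip-6*, *fipr-23*, and *spp-22*. *cnc-11* had 8.26 FPKM in T1, against 12.9 FPKM in C1, and 1.94 and 1.24 FPKM in T2 and T3, against 2.12 and 9.11 FPKM in C2 and C3. Its fitted difference was -0.95 ± 0.43 (SE), or -0.41 without C3, and C2 was only just above T2.

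*cnc-4* had 32.1 FPKM in T1, against 51.6 FPKM in C1, and 4.93 and 5.04 FPKM in T2 and T3, against 4.34 and 16.9 FPKM in C2 and C3. *cnc-3* had 12.9 FPKM in T1, against 16.9 FPKM in C1, and 6.39 and 7.44 FPKM in T2 and T3, against 6.41 and 20.5 FPKM in C2 and C3. *cnc-8* had 19.4 FPKM in T1, against 20.1 FPKM in C1, and 3.47 and 2.33 FPKM in T2 and T3, against 1.96 and 8.97 FPKM in C2 and C3. In each of these 3 genes C3 was the highest of its table and C2 lay with or below T2 and T3. Their fitted differences were -0.69, -0.58, and -0.34, and without C3 they were -0.19, -0.11, and 0.20. *cnc-9* went the other way in the table with 4 libraries, with 7.39 and 5.46 FPKM in T2 and T3, against 2.267 and 2.748 FPKM in C2 and C3, but had 2.54 FPKM in T1, against 3.63 FPKM in C1. The fitted difference was 0.59 ± 0.33 (SE), or 0.50 without C3. *cnc-2*, the DBL-1 target, had 2.53 FPKM in T1, against 6.25 FPKM in C1, and was listed at 0 and 1.64 FPKM in T2 and T3, against 0.512 and 0.184 FPKM in C2 and C3. The order of the groups thus turned between the tables for *cnc-9*, and for *cnc-2* the groups overlapped in the table with 4 libraries.

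The 26 *fip* and *fipr* genes tested had 16 negative and 10 positive fitted differences. The negative ones were 61.5%, against 44.9% of all genes. Without C3, 16 were again negative, or 61.5%, near the 58% of all genes. The median of the 26 genes was -0.07, or -0.09 without C3. Their levels, those of all 32 members, summed to 465.7 FPKM in T1, against 542.1 FPKM in C1, and to 470.0 and 453.3 FPKM in T2 and T3, against 474.4 and 652.0 FPKM in C2 and C3. *fipr-21*, the highest on average, had 157 FPKM in T1, against 151 FPKM in C1, and 90.1 and 111 FPKM in T2 and T3, against 107 and 214 FPKM in C2 and C3. *fip-2* had 58.3 FPKM in T1, against 79.0 FPKM in C1, and 52.3 and 49.1 FPKM in T2 and T3, against 49.6 and 67.0 FPKM in C2 and C3. For both genes C3 was the highest of its table, and without it the fitted differences were -0.04 and -0.17, against -0.38 and -0.27 with it.

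*fipr-1* had 19.6 FPKM in T1, against 19.4 FPKM in C1, and 68.2 and 63.2 FPKM in T2 and T3, against 69.3 and 64.8 FPKM in C2 and C3, a fitted difference of -0.02 ± 0.13 (SE), or -0.04 without C3. *fipr-2* had 36.4 FPKM in T1, against 32.0 FPKM in C1, and 104 and 83.2 FPKM in T2 and T3, against 82.4 and 96.9 FPKM in C2 and C3, a fitted difference of 0.10 ± 0.15 (SE), or 0.18 without C3. In both genes the groups overlapped in the table with 4 libraries. The transcripts of *fipr-2* were split differently in T2 than in the other libraries of its table. The transcript F23H12.9a had 28.9 and 82.7 FPKM in T2 and T3, against 81.8 and 96.4 FPKM in C2 and C3, and F23H12.9b had 75.0 and 0.53 FPKM, against 0.593 and 0.495 FPKM. In the T1 and C1 pair the split was alike, with 15.5 FPKM of F23H12.9a in T1, against 12.2 FPKM in C1, and 20.9 FPKM of F23H12.9b in T1, against 19.8 FPKM in C1. The sum of the transcripts hides this. The fitted difference was -0.54 with the highest transcript of each table standing for the gene. That was F23H12.9b for T1 and C1 but F23H12.9a in the table with 4 libraries, so the value mixes transcripts.

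The 3 largest negative differences belonged to *fipr-22*, *fipr-23*, and *fipr-24*, which lie together on chromosome I. *fipr-24* had 38.9 FPKM in T1, against 57.1 FPKM in C1, and 2.59 and 1.65 FPKM in T2 and T3, against 2.26 and 33.8 FPKM in C2 and C3. *fipr-22* had 49.7 FPKM in T1, against 81.2 FPKM in C1, and 1.62 and 1.41 FPKM in T2 and T3, against 1.364 and 10.96 FPKM in C2 and C3. In both genes C3 was several times above the other libraries of its table, among which C2 lay within or below the VK2 libraries. The fitted difference of *fipr-24* was -1.37 ± 0.80 (SE), or -0.28 without C3, and that of *fipr-22* was -0.96 ± 0.54 (SE), or -0.25 without C3. *fipr-23* had 13.9 FPKM in T1, against 27.8 FPKM in C1, and 0.651 and 0.707 FPKM in T2 and T3, against 1.06 and 4.88 FPKM in C2 and C3. Its groups did not overlap in either table, and the fitted difference was -1.02 ± 0.37 (SE), or -0.58 without C3, at an unadjusted p of 0.03 and an adjusted p of 0.9996 in limma with Benjamini-Hochberg adjustment.

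Of the 23 *fipr* genes tested, 6 were lowest in C3 in their table, namely *fipr-16*, *fipr-17*, *fipr-18*, *fipr-20*, *fipr-28*, and *fipr-29*, which is 26.1%, where 49% of all genes were lowest there. *fipr-18* had 1.98 FPKM in T1, against 2.74 FPKM in C1, and 11.7 and 15.4 FPKM in T2 and T3, against 14.9 and 2.19 FPKM in C2 and C3. *fipr-20* was listed at 0 in T1, against 1.16 FPKM in C1, and had 2.91 and 2.92 FPKM in T2 and T3, against 2.31 FPKM in C2 and a listing at 0 in C3. With C3 their fitted differences were 0.57 and 0.36, and without it -0.22 and -0.34, so that the direction depended on that library. All 6 of these genes were lower in T1 than in C1. All 10 oocyte and embryo markers, all 8 sperm markers tested, and 7 of 9 pharynx markers were also lowest in C3 in their table, and the part of any tissue in these levels was not tested.

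The *spp* family held the highest levels of all, summing to 2799 FPKM in T1, against 3609 FPKM in C1, and to 1720 and 1977 FPKM in T2 and T3, against 1809 and 1958 FPKM in C2 and C3. Of the 19 genes tested, 12 had a negative fitted difference, or 63.2%, against 44.9% of all genes. Without C3 there were 13, or 68.4%, against 58% of all genes. The median of the 19 genes was -0.12, or -0.08 without C3. C3 was the highest of its table for 9 of the 19, or 47.4%, against 29.3% of all genes. It was the lowest for 7, or 36.8%, against 49% of all genes.

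*spp-5*, which encodes a pore-forming protein that kills bacteria in the intestine, had 899 FPKM in T1, against 1286 FPKM in C1, and 485 and 594 FPKM in T2 and T3, against 542 and 421 FPKM in C2 and C3. T1 was below C1, but T2 and T3 lay around C2 and above C3, and the fitted difference was -0.06 ± 0.20 (SE), or -0.23 without C3. *spp-2* had 330 FPKM in T1, against 367 FPKM in C1, and 246 and 272 FPKM in T2 and T3, against 264 and 132 FPKM in C2 and C3. C3 was well below the other libraries of its table, and the fitted difference of 0.26 ± 0.27 (SE) became -0.08 without it. *spp-3* had 304 FPKM in T1, against 359 FPKM in C1, and 113 and 158 FPKM in T2 and T3, against 127 and 153 FPKM in C2 and C3. Its groups overlapped, with a fitted difference of -0.12 ± 0.17 (SE), or -0.06 without C3. *spp-1*, which encodes an intestinal antibacterial protein, had 145 FPKM in T1, against 221 FPKM in C1, and 91.3 and 99.2 FPKM in T2 and T3, against 85.3 and 56.2 FPKM in C2 and C3. T1 was below C1 while T2 and T3 were above C2 and C3, and the fitted difference was 0.10 ± 0.26 (SE), or -0.17 without C3.

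*spp-14* was among the abundant *spp* genes that were highest in C3 in their table, with 346 FPKM in T1, against 503 FPKM in C1, and 183 and 224 FPKM in T2 and T3, against 195 and 438 FPKM in C2 and C3. It was lower in the VK2 library of all 3 pairs, by a fitted -0.53 ± 0.29 (SE), or -0.20 without C3. *spp-17* had 121 FPKM in T1, against 110.1 FPKM in C1, and 49.8 and 72.1 FPKM in T2 and T3, against 80.2 and 158 FPKM in C2 and C3. T2 and T3 were below both controls of their table, but T1 was above C1, and the fitted difference was -0.55 ± 0.33 (SE), or -0.18 without C3. *spp-9*, at low levels, had 0.833 FPKM in T1, against 0.957 FPKM in C1, and 0.181 and 0.64 FPKM in T2 and T3, against 0.261 and 3.68 FPKM in C2 and C3. Only C3 differed, and the fitted difference of -0.57 ± 0.48 (SE) was 0.04 without it. The mean of *spp-9*, 1.09 FPKM, passed the filter of 1 FPKM only through C3, since every other library was below 1 FPKM. The gene is still part of the counts given here, such as that of genes highest in C3.

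*spp-11* showed the largest difference of all 67 genes toward higher levels in VK2-treated worms. It had 2.81 FPKM in T1, against 1.71 FPKM in C1, and 9.89 and 2.9 FPKM in T2 and T3, against 1.15 and 0.599 FPKM in C2 and C3. Every VK2 library was above every control library of its table, and T2 was far above T3. The fitted difference was 1.37 ± 0.45 (SE), or 1.13 without C3, at an unadjusted p of 0.0186 and an adjusted p of 0.9996 in limma with Benjamini-Hochberg adjustment, and it lay between 0.83 and 1.81 when single libraries were left out. Only *abf-2* and *spp-16* had their libraries in the same order, which makes 3 of the 67 genes, or 4.48%, against 6.83% of all genes. *spp-16* had 31.1 FPKM in T1, against 29.1 FPKM in C1, and 13.8 and 15.3 FPKM in T2 and T3, against 11.8 and 11.1 FPKM in C2 and C3, a fitted difference of 0.24 ± 0.15 (SE), or 0.20 without C3.

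The transcripts of *spp-18* differed between the libraries of the T1 and C1 pair more than the gene did. The transcript F27C8.4a.2 had 52.14 FPKM in T1, against 107.5 FPKM in C1, and F27C8.4b had 83.2 FPKM in T1, against 20.5 FPKM in C1. In the other table F27C8.4b was the higher of the transcripts in every library, at 109 and 116 FPKM in T2 and T3, against 98.9 and 116 FPKM in C2 and C3. The fitted difference of the summed gene was 0.06, or 0.15 without C3.

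**Figure D4:**
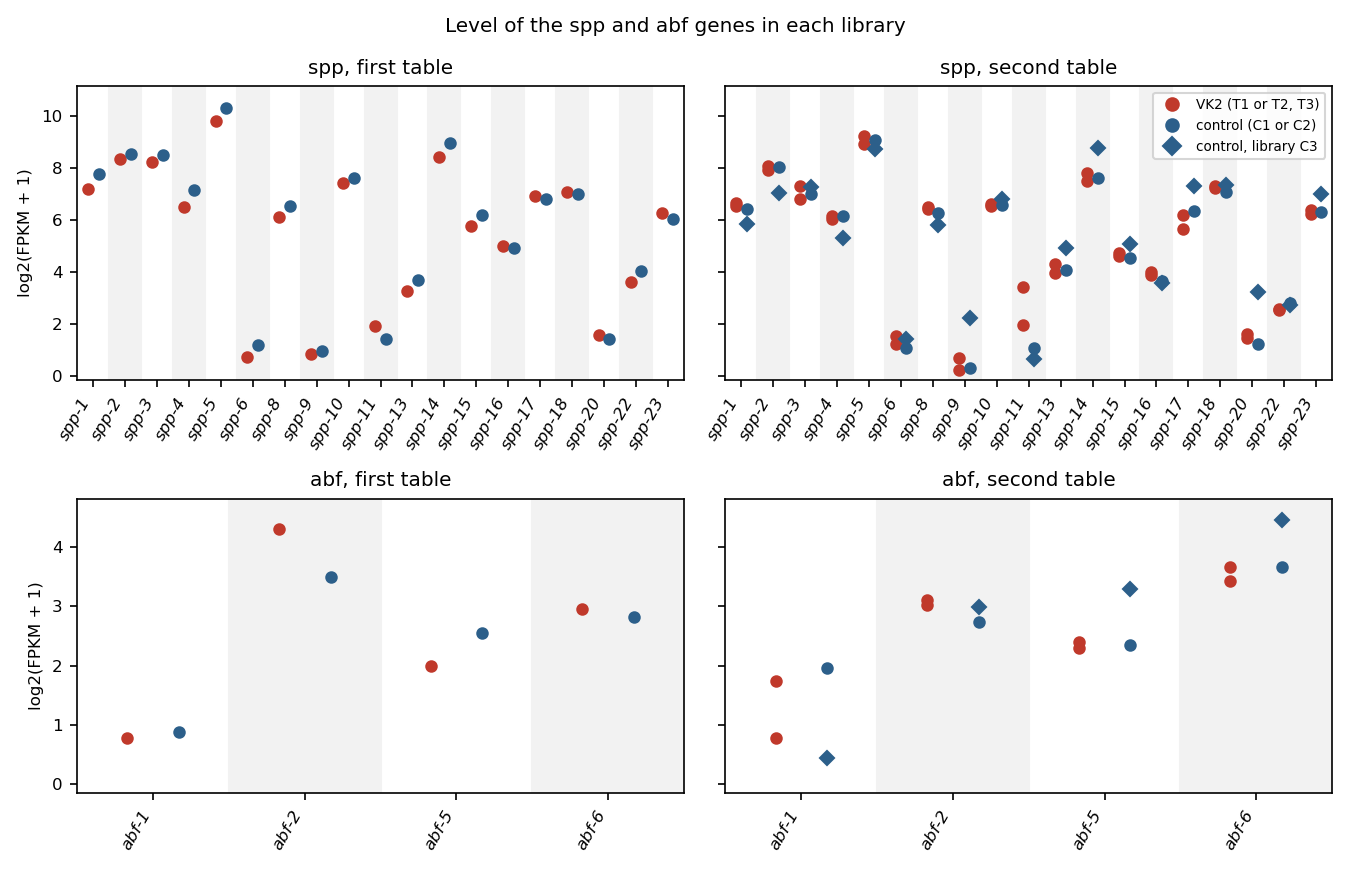
Level of the 19 *spp* and 4 *abf* genes tested, as log2(FPKM + 1), in each library, with VK2 libraries in red to the left of control libraries in blue and C3 as a diamond. C3 lies above the other libraries of its table for *spp-9*, *spp-14*, *spp-17*, and *spp-20* and below them for *spp-1*, *spp-2*, and *spp-4*, and *spp-11* has its VK2 libraries above its controls in both tables.

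Among the 4 *abf* genes tested, *abf-2*, which encodes a secreted peptide active against bacteria and fungi, was higher in the VK2 library of every pair. It had 18.8 FPKM in T1, against 10.2 FPKM in C1, and 7.11 and 7.59 FPKM in T2 and T3, against 5.64 and 6.90 FPKM in C2 and C3. The largest gap was in the T1 and C1 pair, and in the other table the lower VK2 library was only just above C3. The fitted difference was 0.41 ± 0.20 (SE), or 0.54 without C3, with an unadjusted p of 0.0804 and an adjusted p of 0.9996 in limma with Benjamini-Hochberg adjustment. Primers for real-time PCR of *abf-2* were listed in the study, which chose its defense genes among those it called up-regulated in this RNA sequencing. The direction of *abf-2* in these libraries therefore cannot be taken as independent evidence. *abf-1*, its neighbour, had 0.713 FPKM in T1, against 0.845 FPKM in C1, and 2.35 and 0.723 FPKM in T2 and T3, against 2.91 and 0.349 FPKM in C2 and C3. T2 and C2 were high and T3 and C3 low, with no separation by treatment and a fitted difference of 0.01 ± 0.44 (SE), or -0.45 without C3.

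*abf-5* and *abf-6* were both highest in C3. *abf-6* had 6.72 FPKM in T1, against 6.08 FPKM in C1, and 11.7 and 9.81 FPKM in T2 and T3, against 11.63 and 21.04 FPKM in C2 and C3. *abf-5* had 3.00 FPKM in T1, against 4.84 FPKM in C1, and 3.91 and 4.29 FPKM in T2 and T3, against 4.11 and 8.84 FPKM in C2 and C3. The fitted difference of *abf-6* was -0.30 ± 0.26 (SE), or -0.01 without C3, and that of *abf-5* was -0.50 ± 0.27 (SE), or -0.24 without C3.

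Position in the genome was not used by the rule. In genome build WBcel235, 53 of the 78 genes lay in 17 clusters, defined as members no more than 20 kb apart on a chromosome. The members were spread as 33 genes on chromosome V, 16 on X, 11 on III, 10 on I, 7 on IV, and 1 on II. *nlp-34*, *nlp-31*, *nlp-30*, *nlp-29*, *nlp-28*, and *nlp-27* lay on chromosome V between 3978825 and 3989770 with 0 other protein-coding genes among them. All 6 were highest in C3 in their table, by a median log2 difference of 0.85 from the mean of T2, T3, and C2 and a range from 0.47 to 1.64. *cnc-11*, *cnc-1*, *cnc-5*, *cnc-4*, *cnc-3*, and *cnc-2* lay on chromosome V between 1442342 and 1450183. In C3, *cnc-3*, *cnc-4*, and *cnc-11* were higher by 1.48, 1.63, and 1.88, while *cnc-1* and *cnc-2* of the same cluster differed by -0.60 and -0.42, so neighbours did not all share the direction.

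The cluster of *spp-3*, *spp-2*, *spp-6*, *spp-4*, and *spp-5* on chromosome X, between 7314969 and 7320354, held 3 genes that were low in C3. *spp-2*, *spp-4*, and *spp-5* were lowest in C3, by -0.97, -0.81, and -0.35, whereas *spp-3* and *spp-6* differed by 0.22 and 0.15. *fipr-22*, *fipr-23*, and *fipr-24* were above the mean of the other libraries by 2.28, 1.71, and 3.47, and *fip-6* and *fipr-26*, also neighbours on chromosome I, by 1.31 and 2.64. *fipr-18* and *fipr-20* on chromosome III were below it by -2.23 and -1.89. These are values of 1 library against 3, with no test. Neighbouring genes of a family may share sequence, which was not compared here, so that fragments may have been assigned to the wrong copy. The sources used here do not say how fragments that match several copies were assigned. In all, 16 members were overlapped by a protein-coding gene on the opposite strand. Among those with values above were *abf-1*, *abf-2*, *abf-5*, *abf-6*, *fipr-1*, *fipr-2*, *fip-2*, *spp-1*, and *spp-16*. Whether strand was used in the counting is not stated, and the reads of such partners may not have been told apart.

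**Figure D5:**
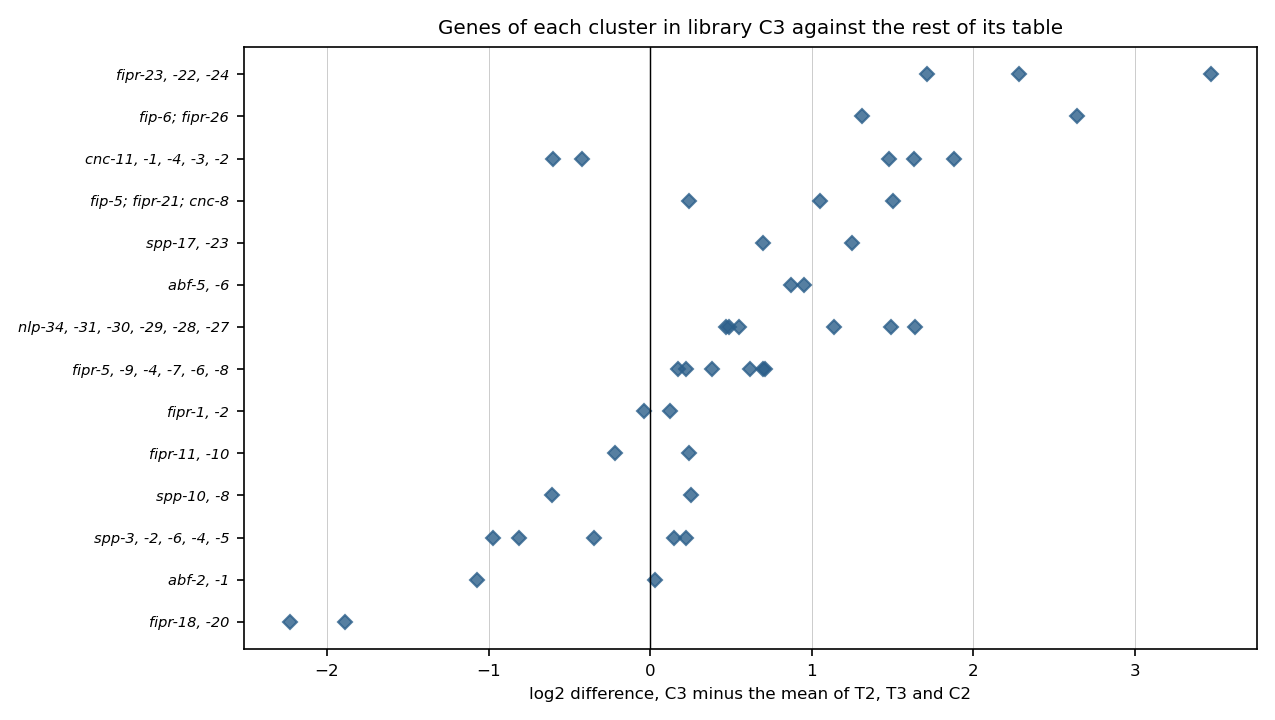
Log2 difference between C3 and the mean of T2, T3, and C2 for the genes tested in each cluster with at least 2 of them, a diamond per gene, clusters ordered by their median. All 6 genes of the *nlp-29* cluster and all 3 of the *fipr-22* to *fipr-24* cluster lie right of 0, *fipr-18* and *fipr-20* lie left of it, and the clusters of *cnc* and of *spp-2* to *spp-6* hold genes on both sides.

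The regulators of these families were examined in 3 lists, and none of their genes differed by 1.5 times. Of 21 genes of the epidermal p38 pathway and its output regulators, 11 were higher and 10 lower by the fitted difference, where 55.1% of all genes were higher, at a median of 0.01, and 0.02 without C3. In the p38 list 0 genes passed an unadjusted p of 0.05, as 3.57% of all genes did, or an adjusted p of 0.05 in limma. The 2 with the largest differences were *cebp-1*, a bZIP transcription factor, and *nipi-3*, a Tribbles-like kinase needed for *nlp-29* induction by fungi. *cebp-1* had 57.02 FPKM in T1, against 61.4 FPKM in C1, and 26.2 and 24.4 FPKM in T2 and T3, against 23.4 and 55.4 FPKM in C2 and C3. *nipi-3* had 34.96 FPKM in T1, against 33.95 FPKM in C1, and 32.3 and 30.9 FPKM in T2 and T3, against 31.4 and 51.6 FPKM in C2 and C3. Both were highest in C3 in their table and differed by 0.02 without it, against -0.37 and -0.21 with it, so their place as the largest rested on C3. Of the 21 genes, 11 were highest in C3, where 29.3% of all genes were, and 6 lowest, where 49% were. The median log2 difference of the 21 between C3 and the mean of T2, T3, and C2 was 0.07.

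Of 8 genes of DBL-1 signalling, 3 were higher, where 55.1% of all genes were, and 5 lower, at a median of -0.04, or 0.09 without C3. The 2 with the largest differences were the SMAD genes *sma-3* and *sma-2*. *sma-3* had 9.56 FPKM in T1, against 10.3 FPKM in C1, and 6.97 and 6.97 FPKM in T2 and T3, against 5.71 and 12.2 FPKM in C2 and C3, a fitted difference of -0.19 ± 0.27 (SE), or 0.10 without C3. *sma-2* had 4.51 FPKM in T1, against 3.38 FPKM in C1, and 4.60 and 4.66 FPKM in T2 and T3, against 5.41 and 7.14 FPKM in C2 and C3, a fitted difference of -0.13 ± 0.22 (SE), or 0.04 without C3. For both genes the direction turned without C3. Of 16 regulators of intestinal defense, 11 were higher and 5 lower, at a median of 0.08, or 0.10 without C3. The share of genes higher among all genes tested was 55.1%. *fshr-1*, a receptor gene of the intestinal response to bacteria, had 20.8 FPKM in T1, against 18.7 FPKM in C1, and 13.2 and 11.3 FPKM in T2 and T3, against 10.2 and 7.45 FPKM in C2 and C3. Its VK2 libraries were above its controls in both tables, at 0.34 ± 0.19 (SE), or 0.20 without C3. *elt-7*, an intestinal GATA factor gene, had 16.4 FPKM in T1, against 14.1 FPKM in C1, and 8.53 and 5.66 FPKM in T2 and T3, against 6.17 and 4.93 FPKM in C2 and C3. T3 was below C2, and the fitted difference was 0.26 ± 0.20 (SE), or 0.18 without C3. In both lists 0 genes passed an unadjusted p of 0.05, as 3.57% of all genes did, or an adjusted p of 0.05 in limma.

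Of the 11 genes not tested, *fip-1*, *spp-7*, *spp-12*, and *spp-21* were in both tables but below a mean of 1 FPKM, and the rest were in 1 table. *spp-21*, the neighbour of *spp-9*, had 0.197 FPKM in T1, against 0.681 FPKM in C1, and was listed at 0 in T2, T3, and C2 but at 4.87 FPKM in C3. Like *spp-9*, it was high in C3 alone. *cnc-5* was listed only with T1 and C1, at 0.896 FPKM in T1 and 1.24 FPKM in C1. *fip-3*, *fip-7*, *fipr-19*, *fipr-25*, *fipr-27*, and *abf-4* were listed only in the other table. *fip-3* had 0.707 and 0.875 FPKM in T2 and T3, against 1.01 and 0.824 FPKM in C2 and C3, and *fipr-19* had 1.14 and 1.66 FPKM in T2 and T3, against 2.37 and 0.666 FPKM in C2 and C3. The groups of both overlapped. *fip-7* had 3.71 and 4.56 FPKM in T2 and T3, against 3.36 and 1.35 FPKM in C2 and C3, and *fipr-27* had 2.44 and 3.74 FPKM in T2 and T3, against 3.20 and 0.497 FPKM in C2 and C3. *fip-7* and *fipr-27* were lowest in C3, as was *fipr-28*, which lies in their cluster. *fipr-25* was listed at 3.61 and 0 FPKM in T2 and T3, against 0 and 0.155 FPKM in C2 and C3, and *abf-4* at 0 and 0.204 FPKM in T2 and T3, against 0 and 1.73 FPKM in C2 and C3, so that each had a single library above 1 FPKM.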

How the data were processed

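Values were the FPKM of each transcript, deposited by the authors in 2 tables, after alignment to WBcel235 with Hisat2 and calculation with Ballgown as stated in the methods. The submitters' processing notes name HISAT2 2.1.0, STAR 2.5.2b, cutadapt, and StringTie. In the first table, 49 lines had joined fields and were split by their last columns. Low FPKM values did not fall on whole multiples of a fragment, so no read counts were recovered and the depth, and the precision it gives, are unknown.

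FPKM was summed per gene in Python 3.11.15 with pandas 2.3.3. The 15207 genes in both tables were filtered at a mean of 1 FPKM, leaving 14191, which were fitted with limma 3.58.1 in R 4.3.3 on log2(FPKM + 1), two-sided, trend on, robust off, with terms for VK2 and table and with p adjusted by Benjamini-Hochberg over these genes. The procedure was tested on simulated data in which a gene had the same spread in all libraries. That test does not cover a library that stands apart, as C3 did. Positions, and the overlap of members with other genes, came from Ensembl release 115, in which 92 symbols meet the rule. Of these, 8 were in neither table and 6 were listed under other names.

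After the group means were removed, Pearson's r across genes between libraries of one number was 0.881 (C1 and T1), 0.556 (C2 and T2), and 0.543 (C3 and T3). Libraries of unlike number in the second table had 0.613 (C2 and T3) and 0.608 (C3 and T2). Since the table alone gives such values, the replicate number was a block only as an alternative.

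The members, the pathway and marker lists, and the rule for naming were chosen with earlier results of these data known. Values in each library are given for the 4 members of each family with the highest mean FPKM, *abf-2*, the 3 largest fitted differences in each direction in the epidermal and intestinal families, the 2 largest of each pathway list, members in 1 table, and a few others chosen after their values were seen (such as *nlp-30*, *nlp-31*, *nlp-32*, *nlp-34*, *cnc-2*, *cnc-11*, *spp-1*, *spp-16*, *spp-18*, *spp-21*, and *vit-2*). Tried as alternatives were the replicate block, a pseudocount of 0.1 or 5, and leaving out the filter or the table term. Quantile normalization within each table, the second table on its own, and each library left out were also tried. So was the transcript with the highest mean in each table, in place of the sum. No sequence is shown.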

Additional observations from a re-analysis of the deposited data

How the results depend on the processing

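Across all alternatives 0 members passed an adjusted p of 0.05 in limma, and the lowest adjusted p of any member was 0.239, without C2. The median of the epidermal genes lay between -0.29 and -0.10 and that of the intestinal genes between -0.22 and -0.06 when single libraries were left out. Epidermal members at least 1.5 times lower were 9, where 1.68% of all genes were. They were 4 with a pseudocount of 5, against 0.634% of all genes. With a library left out they were from 0 (without C3, against 0.684%) to 14 (without C2, against 4.73%). Epidermal members at least 1.5 times higher were 1, against 3.33% of all genes. They were 3 with a pseudocount of 0.1, against 6.9%, and 0 with a pseudocount of 5, against 0.867%, or quantile normalization, against 2.68%. They were 4 in the second table alone, against 3.43%, and 0 to 4 with a library left out. Intestinal members at least 1.5 times lower were 0, against 1.68% of all genes. They were 2 with a pseudocount of 0.1, against 3%, and 1 with no filter, against 1.68%, or with quantile normalization, against 2.14%. They were 3 in the second table alone, against 3.51%, and 0 to 6 with a library left out. The cause was not tested. With the replicate block, the medians (-0.19 and -0.12), counts at 1.5 times, and fitted differences cannot change, since each number holds 1 VK2 and 1 control library. The same holds for leaving out the table term, so neither is a check of these values. Only the p could change with the block. No call changed, while 6 members in place of 3 had an unadjusted p below 0.05 in limma. Of all genes, 4.14% had such a p with the block and 3.57% without it. A crossed replicate block (T2 with C3 and T3 with C2) was added after seeing that C2 minus C3 and T2 minus T3 had an r of -0.111. It gave 7 such members, where 4.34% of all genes had such a p, and 0 calls.

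Of the 29 named genes, 19 kept their sign throughout. The replicate blocks, and leaving out the table term or the filter, could not change a sign. The sign turned for *nlp-28* (0.01 in the second table alone) and *fipr-2* (-0.54 with its highest transcript of each table). It also turned for *spp-5* (0.05 with quantile normalization and 0.17 in the second table alone) and *abf-1* (-0.01 with a pseudocount of 5 and -0.07 with quantile normalization). With single libraries left out, the range crossed 0 for *nlp-28* (-0.42 to 0.01), *cnc-8* (-0.80 to 0.20), *fipr-1* (-0.04 to 0.02), *spp-5* (-0.23 to 0.17), *spp-2* (-0.08 to 0.49), *abf-1* (-0.45 to 0.43), *fipr-20* (-0.34 to 1.10), *fipr-18* (-0.22 to 1.10), and *spp-9* (-1.04 to 0.04). For 6 of them it turned without C3. Where T1 or C1 is left out, the difference rests on the second table and equals that of the second table alone, so these are not separate checks. Unknown depth leaves low levels, such as those of *spp-9*, *abf-1*, and *fipr-20*, without an error of their own.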

Other observations

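Genes that carry an *spp* name in Ensembl release 115 but a sequence name in the tables were outside the rule, and 6 were found. Y77E11A.14 (now *spp-31*) had 6.85 FPKM in T1, against 6.04 FPKM in C1, and 7.63 and 8.18 FPKM in T2 and T3, against 9.08 and 9.74 FPKM in C2 and C3. F23F1.7 (now *spp-24*) had 16.5 FPKM in T1, against 19.3 FPKM in C1, and 10.4 and 8.65 FPKM in T2 and T3, against 6.09 and 11.2 FPKM in C2 and C3. K02A11.4 (now *spp-25*) had a fitted log2 difference of -0.18 ± 0.24 (SE) between VK2-treated and control worms. R74.10 (now *spp-28*) had 1.37 FPKM in T1, against 2.33 FPKM in C1, and 5.74 and 5.93 FPKM in T2 and T3, against 6.78 and 9.75 FPKM in C2 and C3, so that its VK2 libraries were below its controls in both tables, at -0.45 ± 0.20 (SE) and an adjusted p of 0.9996 in limma with Benjamini-Hochberg adjustment. Y26G10.7 (now *spp-29*) was listed at 3.18 FPKM in T2 and at 1.17 FPKM or less in each other library. Y71H9A.10 (now *spp-30*) was listed only with T2, T3, C2, and C3, at 0.822 and 0.708 FPKM in T2 and T3, against 0.873 and 0.413 FPKM in C2 and C3.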
